A study of Mus musculus with 8 samples.

Results

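Hepatic stellate cells and myofibroblasts were examined in single-cell RNA sequencing of dissociated mouse liver, and 104 of 80474 cells that passed quality filters (0.129%) were taken as such. The cells were chosen by their own counts: at least 5 unique molecular identifiers (UMIs, each standing for 1 captured RNA molecule) of Dcn, Col3a1 and Col1a1 together, at least 1 UMI of Pdgfrb, Des, Lrat or Acta2, and no UMI of Csf1r, Cd3e or Cd79a, which mark macrophages, T cells and B cells. The study compared wild-type C57BL/6 mice in 3 groups. Control mice (n = 2) received normal diet, HFD+F+CCl4 mice (n = 3) high-fat diet with fructose solution and intraperitoneal carbon tetrachloride, and WD+F+CCl4 mice (n = 3) western diet with the same fructose solution and carbon tetrachloride, and both treated groups are models of nonalcoholic steatohepatitis (NASH) with fibrosis. The controls had neither fructose nor carbon tetrachloride, so diet, sugar and toxin cannot be told apart in a comparison with them, and the age of the mice was not given in the sources used here. Each mouse gave 1 library, and the mice are named here as control 1 and 2, HFD 1 to 3 and WD 1 to 3.

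Hepatic stellate cells lie between the sinusoidal endothelium and the hepatocytes, where they store vitamin A as retinyl esters and secrete growth factors for their neighbours. When the liver is injured they are known to lose their vitamin A droplets, take up the contractile proteins of smooth muscle and secrete fibrillar collagen, a state called activation, and the resulting myofibroblasts are a main source of scar matrix. Portal fibroblasts, smooth muscle cells and pericytes of the vessels share many of these genes.

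The chosen cells came unevenly from the mice. Control 1 gave 9 of 10788 cells (0.0834%, exact 95% binomial interval 0.0382 to 0.158), and control 2 gave none of 4168 cells, with an exact upper limit of 0.0885%. HFD 1 gave 65 of 11179 cells (0.581%, 0.449 to 0.741), HFD 2 gave 17 of 10123 (0.168%, 0.0979 to 0.269) and HFD 3 gave 5 of 10654 (0.0469%, 0.0152 to 0.109). WD 1 gave 1 of 11999 cells (0.00833%), WD 2 gave 1 of 9846 (0.0102%) and WD 3 gave 6 of 11717 (0.0512%, 0.0188 to 0.111). HFD 1 stood above every other library and held 62.5% of all chosen cells, the libraries of the other 2 HFD mice overlapped with the control that had cells, and intervals cover counting error only. The mean share was 0.144% in the 6 NASH mice and 0.0417% in the 2 controls, a difference of 0.103 percentage points that was smaller than the spread between mice (two-sided exact permutation test, p = 0.607). Without HFD 1 the difference was 0.0152 points (exact permutation p = 0.857). Between the diets, the mean share was 0.265% with high-fat and 0.0232% with western diet (WD minus HFD, -0.242 points), which did not pass the test either (exact permutation p = 0.2, where 0.1 is the smallest p that 3 against 3 mice allow). The diets overlapped here only through HFD 3 and WD 3, at 0.0469% and 0.0512%. Under 6 of 10 other filters, rules and denominators every HFD mouse lay above every WD mouse (exact permutation p = 0.1 in each). Among kept cells with no Ptprc UMI, for one, the share was 0.926% to 2.20% with high-fat and 0.0767% to 0.216% with western diet (-1.34 points). Without HFD 1 the difference was -0.0842 points. A share counts what survived dissociation and capture, and a lower share in the tissue cannot be told apart from poorer recovery.

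**Figure D1:**
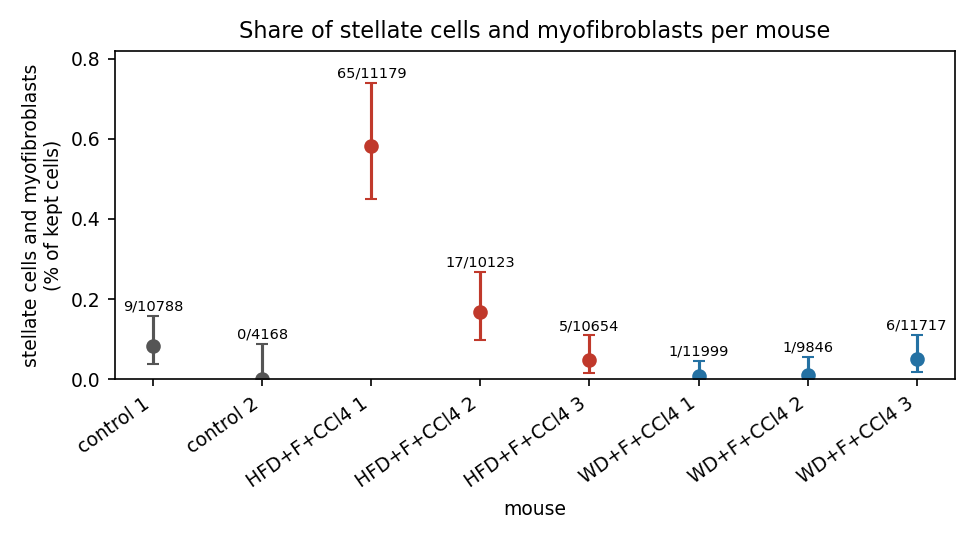
Share of chosen stellate cells and myofibroblasts among all cells kept, in percent, for each of the 8 mice by group, with exact 95% binomial intervals as bars. HFD 1 stands alone at 0.581%, and the other 7 mice lie between 0 and 0.168%.

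Depth differed between the libraries. Total UMIs were 36699315 in control 1, 6135827 in control 2, 49738207, 52880918 and 55186165 in HFD 1 to 3, and 62694610, 46275590 and 64855024 in WD 1 to 3. The library with no chosen cell was thus the shallowest, with a median of 992.5 UMIs per kept cell. The chosen cells had a median of 5266 UMIs each (699 to 19210), against 3295 in the other kept cells, and together held 642120 UMIs. Per mouse the median was 2522 UMIs in control 1, 6994 in HFD 1, 2321 in HFD 2, 4280 in HFD 3 and 2976.5 in WD 3, so HFD 1 held both the most and, but for the single cell of WD 2 at 12589 UMIs, the deepest cells. When cells of at least 1000 UMIs were thinned to 1000 and the same gene rule applied, 9, 0, 93, 17, 7, 2, 2 and 6 cells were chosen in control 1 and 2, HFD 1 to 3 and WD 1 to 3, and HFD 1 again held most of them. Thinning also removes UMIs of the excluded genes, so it can let in cells that were left out at full depth. HFD 1 went from 65 to 93 cells and control 1 stayed at 9, so this is not a check of depth alone. Shallower cells were left out, 557 in control 1 and 2137 of 4168 in control 2.

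The exclusion of Csf1r set much of the size of the population in the NASH mice, but not in control 1. There 15 of 28 cells with the matrix sum carried an excluded gene, 11 with Cd3e, 5 with Cd79a and 2 with Csf1r. Of 230 kept cells with at least 5 UMIs of Dcn, Col3a1 and Col1a1, 113 carried an excluded gene, 99 of them Csf1r, and 64 of those 99 were from HFD 1. In 59 of the 99 the Csf1r count was 1 UMI, and 90 of the 99 carried a stellate marker. Their summed collagen level was 32321 CPM (UMIs of a gene or list per 1000000 UMIs of the pooled cells) and their macrophage list stood at 4823 CPM, against 41268 and 1479 CPM in the chosen cells. The background of Csf1r was uneven: a Csf1r UMI was present in 2.40% of B cells (3 or more Cd79a UMIs) in control 1, 5.88% in control 2, 36.5%, 25.1% and 28% in HFD 1 to 3, and 17.9%, 21.5% and 22.7% in WD 1 to 3. Allowing 1 Csf1r UMI raised the number of chosen cells to 153, with 105 in HFD 1, 22 in HFD 2 and still 9 and 0 in the controls. The threshold on the matrix genes mattered less, since 2 further cells had a sum of 3 and 4 had a sum of 4, while none had 5 and 2 had 6, and 76 of the 104 had 50 or more. Sums were lower in control 1, where 5 of 9 cells had 50 or more and 2 had 5 to 9. In HFD 1 these were 52 and 2 of 65 cells.

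Markers of the label were read both inside and outside the rule. Detection of the rule's own genes follows from the choice of cells and is no check of the label. Of these, Dcn, a small proteoglycan that binds collagen fibrils, had a UMI in 104 cells, Col3a1 in 101, Col1a1 in 95, Lrat, the enzyme that makes retinyl esters, in 83, the growth factor receptor Pdgfrb in 80, the muscle filament gene Des in 68 and Acta2, smooth muscle actin, in 50. All 4 of the stellate markers were found in 29 cells and only 1 in 18. Gfap, a classical marker of rodent stellate cells, had UMIs in 2 cells, and the skeletal actin Acta1 had none. Of the 21 quiescent genes 20 had UMIs, with Pparg at 0. Of the 12 portal fibroblast genes 10 had UMIs, 7 of them in over 10 cells, and the list summed to 2434 CPM against 440 CPM in the other kept cells, with its defining marker Thy1 at 0. The 8 mesothelial markers summed to 49.8 CPM. Of these, Upk1b, Upk3b, Lrrn4, Krt19 and Muc16 were at 0. Without Col1a1 and Col3a1 the collagens took 2.13% of all UMIs of the chosen cells, at 21264 CPM against 161 CPM in all other kept cells, and with them 41268 against 213 CPM. The quiescent stellate list without Lrat stood at 10769 against 718 CPM, and with it at 11850 against 721 CPM. These are values of the cells the rule picked, given as a description with no test. In endothelial cells, cholangiocytes and T cells of the same livers the collagens outside the rule stood at 1799.6, 331 and 49.3 CPM, and the quiescent list without Lrat at 1033, 475 and 107 CPM. The fibrogenic list, with matricellular and other genes of activated cells, was 7989 CPM in the chosen cells, 3694 CPM in the other kept cells, 1877 CPM in endothelial cells and 2528 CPM in T cells. In cholangiocytes it was 18574 CPM, of which Spp1, osteopontin, made up 17341 CPM. Of its 20 genes found in the files, 14 had a log2 ratio to the other kept cells above 1, with a median of 2.28.

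**Figure D2:**
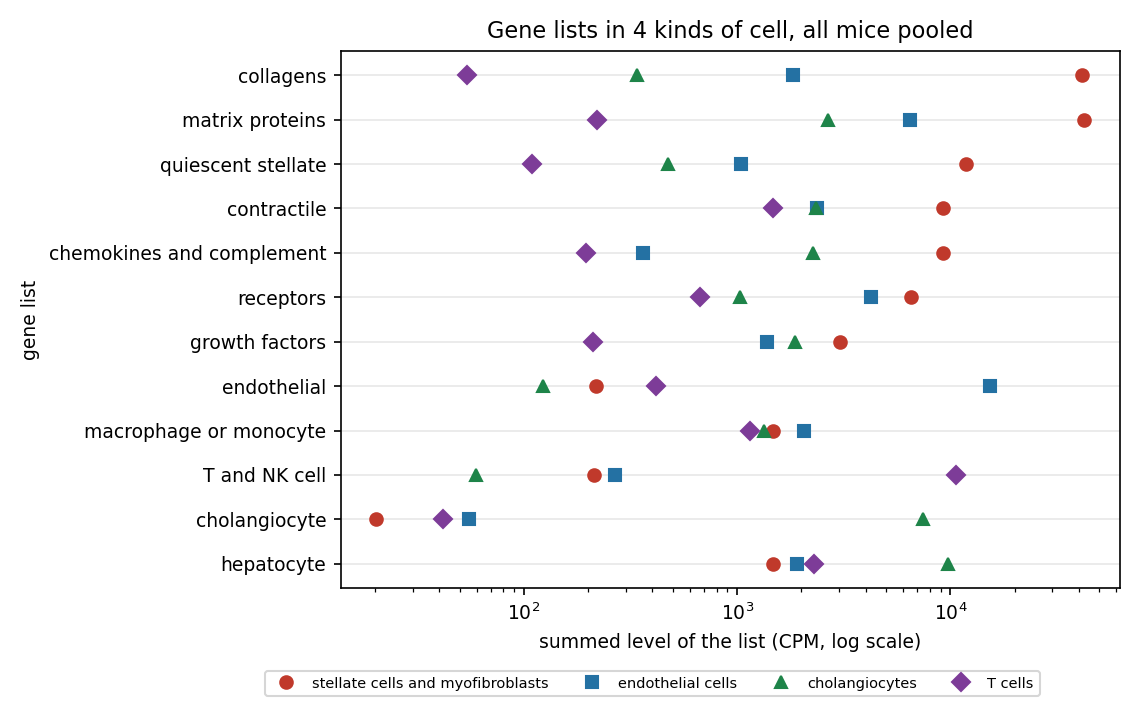
Summed level of each gene list, in CPM on a log axis, in the chosen cells, endothelial cells, cholangiocytes and T cells, pooled over mice. Collagens reach 41268 CPM in the chosen cells and at most 1821 CPM in the other 3 kinds of cell, while the endothelial list is 216 CPM in the chosen cells.

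Genes outside the rule that set the chosen cells apart most from the other kept cells came from several lists. The 20 largest log2 ratios, averaged over the 2 mice with at least 10 chosen cells (HFD 1 and HFD 2), lay between 5.74 and 6.69. In order they were Col1a2, Col14a1, Serping1, Col6a3, Bgn, Colec11, Prelp, Cxcl12, Col6a1, Lum, Reln, Hand2os1, Col6a2, Ccdc80, Sod3, Steap4, Tmem56, Igfbp3, Postn and Cygb. Of these, 5 were collagens, Bgn, Prelp and Lum are leucine-rich proteoglycans of the matrix, Serping1 is the inhibitor of the first complement component, and Reln, Colec11, Sod3 and Cygb belong to the quiescent list. Hand2os1 lies on the opposite strand and overlaps Hand2, a transcription factor of mesenchymal cells, and had UMIs in 91 of the 104 cells against 82 for Hand2. The 5 lowest ratios were those of leukocyte genes, Ccl6, Cd53, Fcer1g, Mpeg1 and Ccl5, at -4.85 to -4.48 on the log2 scale.

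Several collagens were higher in NASH cells than in control cells. Expression could be set against the control only through control 1, whose 9 cells held 23548 UMIs, so that 1 UMI equalled 42.5 CPM, and the comparison of conditions has no replicate check on the control side and no p. Its 2 cells with Ptprc held 3582 and 3652 of these UMIs. The first had 36 UMIs of general leukocyte genes, and the second 292 of hepatocyte genes. Their quiescent genes without Lrat were at 8.38 and 30.1 UMIs per 10000, against a median of 347 in control 1. Both cells count in every control level below, unless a change of the comparison left them out. A gene was called where each of the 4 NASH mice with at least 5 chosen cells (HFD 1 to 3 and WD 3) was at least 2-fold past control 1. A gene was measured where control 1 had at least 10 UMIs or where the NASH mean was at least as high in CPM, and 442 genes were. Of these, 46 (10.4%) were called higher and 53 (12%) lower. A gene that was measured only through the NASH cells had to lie higher there, so the calls were also counted among the 338 genes measured in control 1 itself, of which 8 (2.37%) were called higher, and among the 313 genes measured in the NASH mice themselves, of which 5 (1.6%) were called lower. Among the 104 genes measured only through the NASH mice 38 (36.5%) were called higher, and among the 129 measured only through the control 48 (37.2%) were called lower. The 5 were Dcn, Ecm1, Tmem56, Abcc9 and Rpl10. Of the 18 collagens, 5 were measured in control 1 and 4 of these were called higher. They were Col1a1, Col1a2, Col3a1 and Col4a1, of which Col1a1 and Col3a1 are genes of the rule. Outside the rule 3 were measured in control 1 and 2 were called, of which Col4a1 was not called without the cells with Ptprc, without the deepest cell of each mouse or at 3-fold. The other 4 of the 8 genes were the matrix genes Sparc, Igfbp7 and Ccdc80, and Serping1. Col14a1 was the collagen measured in the control and not called, at 1359 CPM in control 1 and 2213, 2804, 4875 and 1510 CPM in HFD 1 to 3 and WD 3.

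Col1a1 and Col1a2 encode the chains of type I collagen, the main fibre of scar tissue. Col1a1 (chr11:94936224-94953042, plus strand, GRCm38) stood at 425 CPM in control 1 (10 UMIs, exact Poisson interval 204 to 781 CPM), 8625, 4472 and 4640 CPM in HFD 1 to 3, and 5546, 10485 and 5693 CPM in WD 1 to 3. The control lay below all 6 NASH mice, including WD 1 and WD 2 with 1 cell each. The mean of the 4 NASH mice with at least 5 cells was 5858 CPM ± 1923 (SD, n = 4), which was 13.8-fold the control. Col1a1 is a gene of the rule, so this fold is a description of the chosen cells. In HFD 3, 131 of 158 Col1a1 UMIs were in 1 cell, and without the cell highest for each gene Col1a1 was 1788 CPM there, Col1a2 2583 CPM and Col3a1 5564 CPM, all still above the control. Col1a2 (chr6:4504814-4541544, plus strand) stood at 892 CPM in control 1 (552 to 1363), 8790, 5023 and 7078 CPM in HFD 1 to 3, and 2284, 11359 and 8586 CPM in WD 1 to 3. It had the same order, with the single cell of WD 1 the lowest of the NASH mice, and the mean over the 4 mice was 8.26-fold the control.

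Col3a1 (chr1:45311538-45349706, plus strand), which makes the thinner fibres of type III collagen, stood at 1953 CPM in control 1 (1430 to 2606), 13837, 7741 and 10514 CPM in HFD 1 to 3, and 12724, 11677 and 9089 CPM in WD 1 to 3. It was higher in every NASH mouse, by 5.27-fold in the mean over 4 mice. The ratio of Col1a1 to Col3a1 UMIs was 0.217 in control 1 and lay between 0.436 and 0.898 in the 6 NASH mice. The control ratio rests on 10 and 46 UMIs. Col1a1 and Col3a1 are genes of the rule, which asks for a sum with Dcn and so does not set their ratio. Their levels are given as a description of the chosen cells. Of the beaded collagens, Col6a3, which had 6 UMIs in the control and was measured through the NASH cells alone, stood at 255 CPM in control 1 and at 2894, 1841, 1087 and 1793 CPM in HFD 1 to 3 and WD 3, a mean 7.47-fold the control.

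Collagens were also summed without Col1a1 and Col3a1, since the rule used those, and made up 0.446% of UMIs in control 1, 2.26%, 1.68% and 2.38% in HFD 1 to 3, and 1.01%, 2.63% and 1.76% in WD 1 to 3. With them they made up 0.684% of UMIs in control 1, 4.51%, 2.90% and 3.90% in HFD 1 to 3, and 2.84%, 4.85% and 3.24% in WD 1 to 3. On both counts the NASH mice did not overlap with the control, and the diets overlapped with each other. Col1a1, Col1a2, Col3a1 and Col6a3 were called higher under each of these changes of the comparison: leaving out cells with a Ptprc UMI, cells with 10 or more hepatocyte UMIs or the deepest cell of each mouse, or asking for 3-fold. They were also called with each NASH mouse left out in turn. A call asks for every NASH mouse, so that step could not undo the call of a gene measured in control 1. Of these 4 genes only Col1a2 is both outside the rule and measured in the control. Depth also differed between the mice, and after thinning each cell to 1000 UMIs a Col1a1 UMI was seen in 2 of 8 control cells, 60 of 65 cells of HFD 1 and 13 of 14 cells of HFD 2. Unthinned, it was seen in 4 of 9, 64 of 65 and 15 of 17 cells. Col1a1 is a gene of the rule. Col1a2, outside the rule, was seen after thinning in 4 of 8, 63 of 65 and 13 of 14 cells, a smaller contrast. Unthinned, Col1a2 was seen in 7 of 9, 64 of 65 and 15 of 17 cells.

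**Figure D3:**
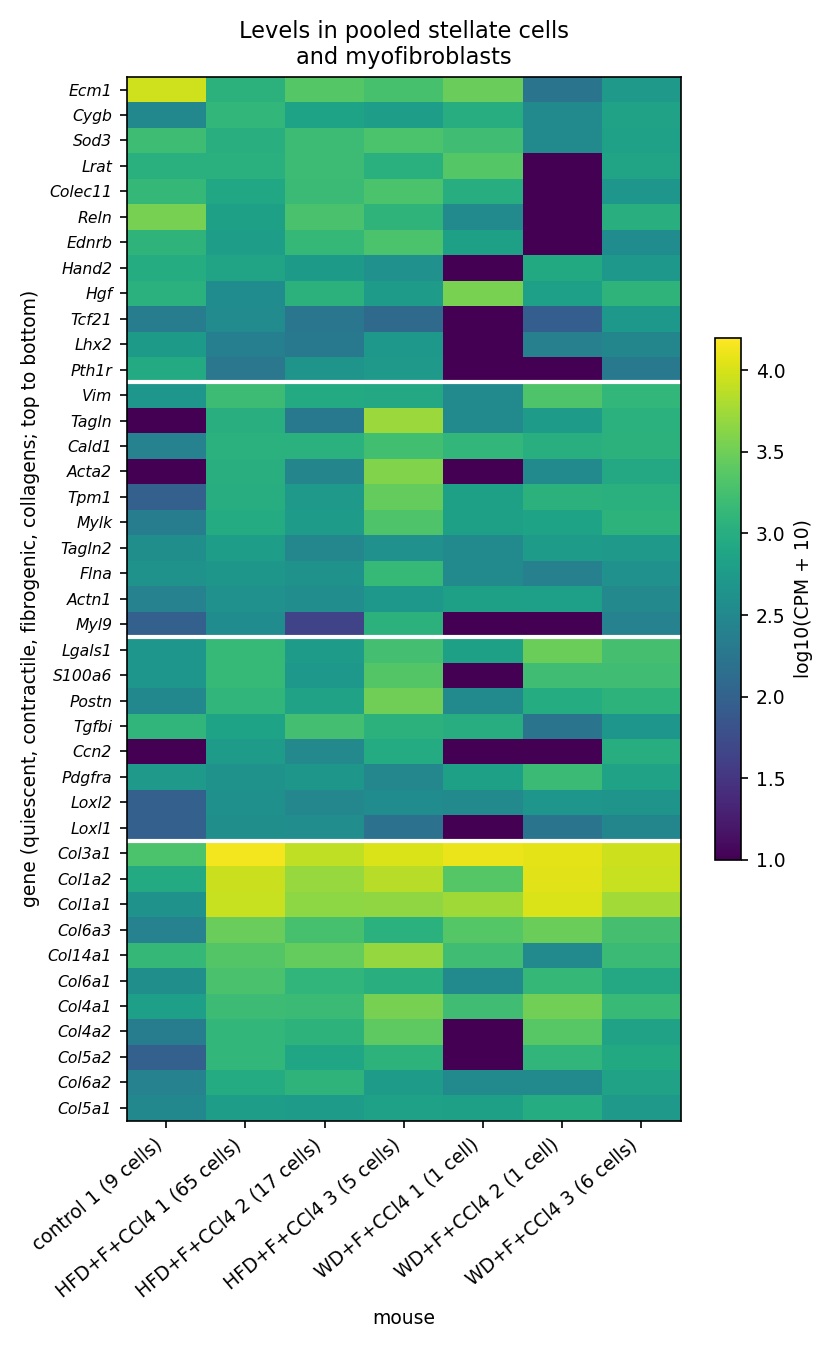
Heat map of the level of quiescent, contractile, fibrogenic and collagen genes (rows, in blocks from top to bottom) in the pooled chosen cells of the 7 mice that had any (columns), as log10 of CPM plus 10. Col1a1 is 425 CPM in control 1 and 4472 to 10485 CPM in the NASH mice, while Ecm1 is 9343 CPM in control 1 and at most 2936 CPM in the NASH mice.

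Promoters of the collagen, contractile and quiescent lists were read for sequence motifs. The bases shown are the 250 before the start of transcription in RefSeq (GRCm38.p6), for Col1a2 as the collagen outside the rule with the highest ratio to other cells (chr6:4505368-4505617, plus strand) and for Myl9, a myosin light chain of the contractile list that was not called (chr2:156775214-156775463, plus strand). The Col1a2 bases lie inside the gene span given above, which is from GENCODE M21 and starts further upstream than the RefSeq start. Capitals mark CCAAT in Col1a2 and a CArG box, the motif that serum response factor binds, in Myl9.
Col1a2: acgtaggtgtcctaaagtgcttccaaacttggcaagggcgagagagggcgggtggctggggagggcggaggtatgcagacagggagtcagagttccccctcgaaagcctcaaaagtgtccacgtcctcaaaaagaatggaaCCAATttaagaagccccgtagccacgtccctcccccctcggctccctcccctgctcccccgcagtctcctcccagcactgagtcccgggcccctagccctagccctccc
Myl9: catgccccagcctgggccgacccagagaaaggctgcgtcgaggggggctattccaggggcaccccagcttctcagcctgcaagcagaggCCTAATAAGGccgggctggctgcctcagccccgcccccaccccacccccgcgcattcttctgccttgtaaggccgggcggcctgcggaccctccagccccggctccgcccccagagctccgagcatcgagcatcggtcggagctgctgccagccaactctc
The CCAAT match began 109 bases before the start. CCAAT, on either strand (ATTGG on the other), was in 33.8% of 32851 promoters of this length, in 6 of the 14 collagens matched by symbol and in 9 of the 14 contractile genes. The CArG box was in 1.47% of all promoters, in none of the 14 collagens, in none of 17 quiescent genes and in 2 of the 14 contractile genes, Myl9 and Cnn2. The CArG match of Myl9 began 161 bases before the start. A match describes the letters only, and binding was not measured.

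Other matrix genes differed in both directions. Sparc, a collagen-binding glycoprotein, stood at 1486 CPM in control 1, at 7680, 5126 and 9310 CPM in HFD 1 to 3 and at 6573 CPM in WD 3, a mean 4.83-fold higher. Igfbp7, a secreted protein of vessels and mesenchyme, stood at 1996 CPM in control 1 and at 8235, 5883, 5874 and 4623 CPM in the same 4 mice, a mean 3.08-fold higher. Both lay above the control in each mouse, but Sparc was not called without the deepest cell of each mouse, since 275 of 317 UMIs in HFD 3 were in 1 cell (2782 CPM without it), and Igfbp7 was not called without the cells with Ptprc or at 3-fold. Dcn (chr10:97479609-97518143, plus strand) went the other way, at 21955 CPM in control 1 (20103 to 23932), 8060, 8721 and 7929 CPM in HFD 1 to 3, and 10440, 1192 and 6070 CPM in WD 1 to 3. It was the most abundant gene of the rule in the control and was 2.85-fold lower in the mean of 4 NASH mice, and 517 of the 607 UMIs of rule genes in the control cells were Dcn. The cells were chosen by a sum that includes Dcn, so a cell with little collagen entered only with Dcn, and these levels are a description of the chosen cells. It was no longer called when the cells with hepatocyte UMIs or the deepest cells were left out or at 3-fold.

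Of the 28 matrix proteins, 10 were measured in control 1, of which 2 were called higher, against 2.37% of all genes measured there. Of 12 measured in the NASH mice 1, Dcn, was called lower, against 1.6% of all such genes. Efemp1, a fibulin, was lower but measured through the control alone, where 37.2% of all such genes were called lower. Its call was lost without the cells with hepatocyte UMIs, without the deepest cell of each mouse and at 3-fold. Bgn stood at 2845 CPM in control 1 and 8433, 7053, 5169 and 3994 CPM in HFD 1 to 3 and WD 3, and was not called. Fn1, fibronectin, had values of 595, 902, 2993, 2584 and 503 CPM in the same order, and 141 of 174 UMIs in HFD 2 came from 1 cell. Of 16 genes that process collagen, 2 were measured in control 1 and neither was called. P4hb, a subunit of prolyl hydroxylase, and Pcolce, which speeds the cutting of procollagen, were higher past 2-fold, both measured through the NASH cells alone. Of all genes measured that way 36.5% were called higher. Serpinh1, the collagen chaperone, stood at 807 CPM in control 1 and 1731, 1170, 1263 and 1478 CPM in HFD 1 to 3 and WD 3, and was not called. Among proteases and their inhibitors, Timp3 and Timp2 had the highest levels, at 1358 and 990 CPM over all chosen cells, none of the 13 was measured in the control, and Adamts5, a protease of proteoglycans, was called higher through the NASH cells.

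The sum of the quiescent list was highest in the control cells, mostly through Ecm1 and Reln. Without Lrat, a gene of the rule, the other genes summed to 24673 CPM in control 1, 9638, 14553 and 14420 CPM in HFD 1 to 3, and 12724, 4687 and 8900 CPM in WD 1 to 3. The control lay above all NASH mice. Without Ecm1 and Reln as well, the other 18 genes summed to 11806 CPM in control 1 (278 UMIs), 7851, 10373 and 11395 CPM in HFD 1 to 3, and 9462, 4528 and 7359 CPM in WD 1 to 3, so the control was then close to HFD 3. Of the 21 genes, 13 were measured in control 1 and none of these was called higher. Of 10 measured in the NASH mice, 1 was called lower, Ecm1, against 1.6% of all such genes. Angptl6 and Fcna were also lower but measured through the control alone, where 37.2% of all such genes were called lower. The calls of these 2 were lost without the cells with hepatocyte UMIs, without the deepest cell of each mouse and at 3-fold. Over the 13 genes, Lrat among them, the median log2 difference of the NASH mean from the control (50 CPM added to each) was -0.72, against -0.37 over the 338 genes.

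Ecm1 (chr3:95734147-95739569, minus strand), a secreted protein known to hold transforming growth factor beta in its latent form, stood at 9343 CPM in control 1 (8149 to 10662), 1142, 2271 and 1821 CPM in HFD 1 to 3, and 2936, 159 and 535 CPM in WD 1 to 3. Every NASH mouse lay below the control, and the mean over 4 mice was 6.48-fold lower. Ecm1 was also called lower without the cells with Ptprc, without those with 10 or more hepatocyte UMIs, without the deepest cell of each mouse and at 3-fold. Leaving out a NASH mouse could not undo its call, since a call asks for every NASH mouse. All 9 control cells had an Ecm1 UMI. After thinning it was seen in 7 of 8 control cells, 41 of 65 cells of HFD 1 and 10 of 14 of HFD 2. It was seen in 5 of 5 cells of HFD 3 and 4 of 6 of WD 3, so HFD 3 was not below the control in detection.

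Reln (chr5:21884454-22344702, minus strand), an extracellular protein that marks stellate cells in liver, stood at 3525 CPM in control 1 (2807 to 4369), 645, 1909 and 1204 CPM in HFD 1 to 3, and 326, 0 and 1006 CPM in WD 1 to 3. All NASH mice were below the control, but HFD 2 was less than 2-fold below it and Reln was not called. Lrat (chr3:82892579-82903973, minus strand) did not separate the groups, at 1062 CPM in control 1, 1069, 1565 and 1057 CPM in HFD 1 to 3, and 2284, 0 and 723 CPM in WD 1 to 3. Cygb, the globin of stellate cells, stood at 297 CPM in control 1 and 1318, 705, 587 and 692 CPM in HFD 1 to 3 and WD 3. It lay above the control in these 4 mice, and it was not called. Sod3, Colec11 and Ednrb had overlapping levels in the control and the NASH mice.

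Acta2 and Tagln had no UMI in the control cells, while the contractile list as a whole had 57. Acta2 (chr19:34241090-34255590, minus strand) had 0 UMIs in control 1 (upper Poisson limit 157 CPM), 1023, 275 and 3965 CPM in HFD 1 to 3, and 0, 318 and 849 CPM in WD 1 to 3. Tagln, an actin-binding protein of smooth muscle, had 0 UMIs in control 1, 1036, 189 and 5227 CPM in HFD 1 to 3, and 326, 556 and 1101 CPM in WD 1 to 3. Both were detected in each of the 4 NASH mice with 5 or more cells and in no control cell, but 9 control cells allow up to 33.3% of cells with a UMI at their depth (median 2522 UMIs, against 6994 in HFD 1). Acta2 was called against a floor of 3 UMIs in the control, and the lowest of the 4 mice, HFD 2 at 275 CPM, is less than 2-fold above the Poisson limit of 157 CPM. Tagln was not called. Single cells carried much of this. In HFD 3, 1 cell of 18954 UMIs held 134 of 135 Acta2 UMIs, 174 of 178 Tagln UMIs and all 38 Myl9 and 50 Myh11 UMIs, and without it Acta2 was 66.2 CPM. In WD 3, 1 cell held 25 of 27 Acta2 UMIs, and without it Acta2 was 112 CPM. Acta2 was not called when the deepest cell of each mouse, the cells with Ptprc or the cells with 10 or more hepatocyte UMIs were left out, or at 3-fold.

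In HFD 1 Acta2 was spread over more cells. There it had a UMI in 40 of 65 cells (61.5%), at a median depth of 6994 UMIs. T cells of the same library, which should lack it, had one in 3.04%, at a median of 2360 UMIs. Since Acta2 is a gene of the rule, its detection in chosen cells follows in part from the choice and is a description only. In HFD 1, 2 cells entered with Acta2 as their single stellate marker. After thinning to 1000 UMIs, Acta2 was seen in 0 of 8 control cells (up to 37.5% with a UMI allowed at this depth), 18 of 65 cells of HFD 1 and 1 of 14 cells of HFD 2, and Tagln in 0, 24 and 2. Of the 15 contractile genes, 2 were measured in control 1 and neither was called. Acta2, Tpm1, Mylk and Cald1, which encode actin, tropomyosin, myosin light chain kinase and caldesmon, were called higher through the NASH cells alone, where 36.5% of all such genes were. Without the cells with 10 or more hepatocyte UMIs none of the 4 was called, and Mylk was also lost without the cells with Ptprc and at 3-fold. Tpm1 stood at 84.9 CPM in control 1 and 963, 533, 2731 and 1069 CPM in HFD 1 to 3 and WD 3, and Cald1 at 255 and then 1092, 1101, 1703 and 1132 CPM. For both, all 4 NASH mice lay above the control, which has 2 and 6 UMIs of them, so that both entered the comparison through the NASH cells.

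The contractile genes without Acta2 summed to 2421 CPM in control 1, 8277, 4851 and 18002 CPM in HFD 1 to 3, and 4894, 7626 and 7831 CPM in WD 1 to 3. Their ratio to the quiescent sum without Lrat was 0.0981 in control 1, 0.859, 0.333 and 1.25 in HFD 1 to 3, and 0.385, 1.63 and 0.880 in WD 1 to 3. The control had the lowest ratio. Without the deepest cell of each mouse the ratio was 0.0772 in control 1, 0.852, 0.242 and 0.199 in HFD 1 to 3 and 0.784 in WD 3, so HFD 3 went from the highest of these 5 mice to the lowest of the 4 NASH mice through 1 cell. Of the fibrogenic genes, 4 were measured in the control and none called. Postn, a matricellular protein, and Ccn2, a target of transforming growth factor beta, were past 2-fold, both measured through the NASH cells alone. Among all such genes 36.5% were called higher. Ccn2 had no UMI in control 1 (upper Poisson limit 157 CPM, which HFD 2 exceeds by less than 2-fold) and 574, 310, 910 and 975 CPM in HFD 1 to 3 and WD 3, with 30 of 31 UMIs in WD 3 from 1 cell. Neither call held when cells with a Ptprc UMI or the deepest cells were left out. Timp1, an inhibitor of matrix proteases, was at 0 in control 1 (the same upper limit of 157 CPM) and at 251, 206, 88.1 and 126 CPM in the same mice. HFD 3 and WD 3 thus lay below that limit. In HFD 2, 10 of 12 Timp1 UMIs were from 1 cell, and without it Timp1 was 42.2 CPM.

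Lrat was found with and without Acta2. Both Lrat and Acta2 had a UMI in 37 cells, Lrat alone in 46, Acta2 alone in 13 and neither in 8. The 9 control cells had Lrat alone in 8 and neither in 1. In HFD 1 the numbers were 32 with both, 19 with Lrat alone, 8 with Acta2 alone and 6 with neither. Among 100 cells thinned to 1000 UMIs, 7 showed both, 50 Lrat alone and 15 Acta2 alone, counts that thinning lowers for each gene, and 4 cells under 1000 UMIs were left out.

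Cell by cell, the quiescent genes without Lrat ranged from 8.38 to 454 UMIs per 10000 (median 95.7) and the contractile genes without Acta2 from 6.05 to 504 (median 49.9). The medians were 347 quiescent and 23.8 contractile in control 1, 88.9 and 65.0 in HFD 1, 101 and 37.9 in HFD 2, 227 and 46.7 in HFD 3, and 104 and 66.0 in WD 3. Control 1 was highest on the first and lowest on the second. Across the 104 cells the 2 sums had Pearson's r = -0.301 and Spearman's rho = -0.394. Within the 65 cells of HFD 1 these were -0.272 and -0.226, and within the 17 cells of HFD 2 they were -0.338 and -0.387. The cells share libraries and differ in depth, both sums are parts of 1 total, and UMIs per cell themselves went with the contractile sum (r = 0.406, rho = 0.527 over all cells). These weak correlations in sparse counts are given as a description only.

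**Figure D4:**
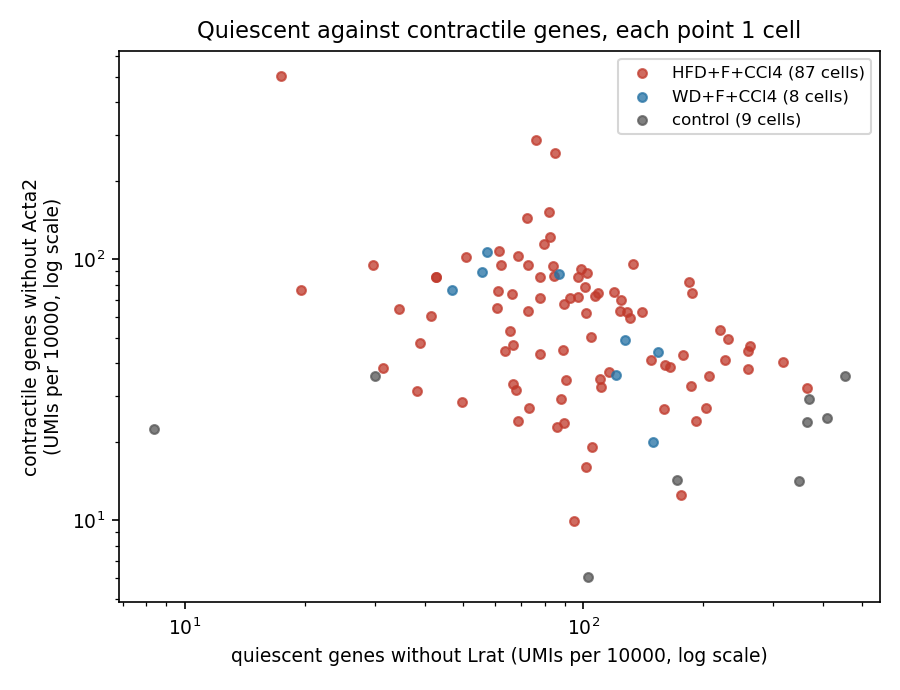
Each point is 1 of the 104 chosen cells, coloured by mouse group, with UMIs per 10000 of the quiescent genes without Lrat on the horizontal axis and of the contractile genes without Acta2 on the vertical axis, both logarithmic. Control cells have a median of 347 on the first and 23.8 on the second, and cells of HFD 1 medians of 88.9 and 65.0.

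Clustering of the 104 cells gave 5 clusters, described by their leading genes with no test, and other resolutions gave 3 to 7. The first (28 cells) was led by Tmem56, Ccl2, Rgs5, Colec10, Ecm1, Angptl6, Reln, Vipr1, Abcc9 and Tgfbi, which mix quiescent genes with Rgs5 and Abcc9, known from pericytes. It held 6 of the 9 control cells, 8 of HFD 1, 7 of HFD 2, 4 of HFD 3, 1 of WD 1 and 2 of WD 3, and all 28 cells had Lrat and 1 had Acta2. The second (27 cells, 3 of control 1 and 17 of HFD 1) was led by Alb, Cd52, Ptprc and H2-Aa, genes of hepatocytes and leukocytes, and 9 of its cells had a Ptprc UMI. The third (21 cells, 18 of HFD 1) was led by Mfap4, Mgp, Myh11, Fmo2, Fgl2 and Myl9, genes of elastic matrix and smooth muscle among them, and 18 of its cells had Acta2 and 12 Lrat. The fourth (19 cells, 17 of HFD 1) was led by the metallothioneins Mt2 and Mt1, then Timp1, C1qtnf6 and Cxcl14. The fifth (9 cells, 5 of HFD 1, 1 each of HFD 2 and WD 2, and 2 of WD 3) was led by Stmn1, Top2a, Cenpf and Ckap2, genes of dividing cells. The 9 control cells all lay in the first and the second cluster.

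Since mouse and cluster go together, levels were read within HFD 1, where all clusters had at least 5 cells. The quiescent list was 24974 CPM in the first cluster, 11263 in the second, 8030 in the third, 9830 in the fourth and 7356 in the fifth. The contractile list was 4923, 9384, 11466, 9267 and 7220 CPM in the same order, and the collagens 18523, 40660, 50914, 48158 and 52274 CPM. Within this mouse the first cluster had the highest quiescent and the lowest contractile and collagen levels, and its collagens were above the 6837 CPM of the control cells. These sums include Lrat, Acta2, Col1a1 and Col3a1, genes of the rule, and are a description only. Col1a2, outside the rule, stood at 2091 CPM in the first cluster of HFD 1 and at 892 CPM in control 1. Cell cycle genes reached 5159 CPM in the fifth cluster and 22.5 to 182 CPM in the others. Median depth was 3160.5 UMIs in the first cluster, 4127 in the second, 9031 in the third, 6778 in the fourth and 9348 in the fifth, and the part of depth in these differences was not tested. Ranked by a doublet score, 7 of the 104 cells (6.73%) fell among the top-scoring cells of their libraries, against 9.26% of all kept cells.

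**Figure D5:**
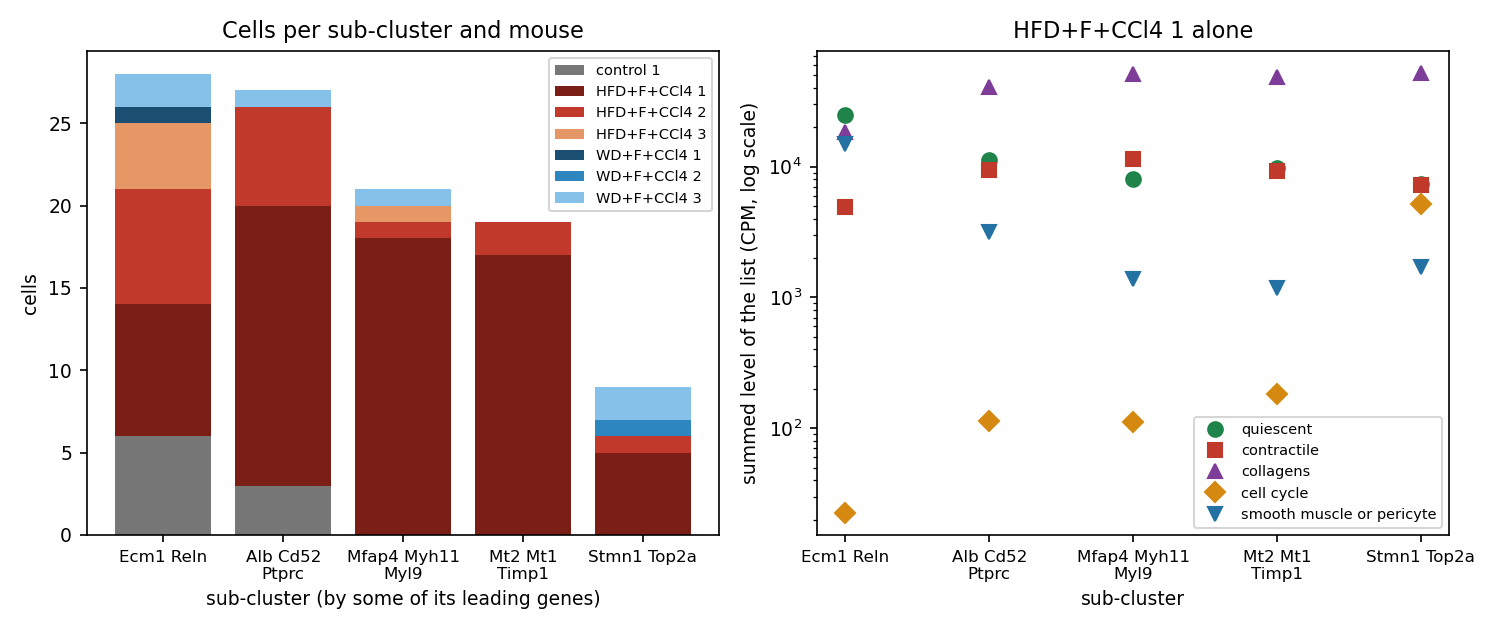
Left, the number of chosen cells in each of the 5 clusters, stacked by mouse, and right, the summed level of 5 gene lists in each cluster within HFD 1 alone, in CPM on a log axis. The first cluster has the highest quiescent level, 24974 CPM, and the lowest collagen level, 18523 CPM.

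The cells carried receptors for the signals that are known to act on stellate cells. Itga1, a collagen-binding integrin chain, had the highest level of the 20 receptors at 1051 CPM over all chosen cells, in 93 cells, followed by Itgb1, its partner, and Ednrb, the endothelin receptor B. Pdgfra, a receptor for platelet-derived growth factor that marks fibroblasts, had 470 CPM in 82 cells, and Agtr1a, the angiotensin receptor, 333 CPM in 67 cells. Of 7 receptors measured in the control none was called higher. Pdgfrb, a gene of the rule measured through the NASH cells alone, stood at 170 CPM in control 1 and 551, 430, 529 and 346 CPM in HFD 1 to 3 and WD 3. Tgfbr3, a co-receptor for transforming growth factor beta, was called lower through the control alone, as were 37.2% of all such genes. Eng, also an endothelial gene, stood at 579 CPM against 1851 CPM in endothelial cells.

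Growth factors of the chosen cells were led by Hgf, the mitogen of hepatocytes, at 1104 CPM in control 1, 349, 1118 and 558 CPM in HFD 1 to 3, and 3589, 636 and 1195 CPM in WD 1 to 3. The control lay within the range of the NASH mice. Gas6, Gdf2, Bmp5 and Rspo3 followed at 313 to 372 CPM over all chosen cells. Gdf2 and Bmp5 were near 1 CPM or less in the other kept cells, while Gas6 was higher in cholangiocytes (724 CPM) and Rspo3 was about as high in endothelial cells (337 CPM). Of 5 growth factors measured in the control none was called higher. Angptl6 was called lower through the control alone, as were 37.2% of all such genes, a call lost under the 3 changes named above.

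Chemokine and complement genes stood at 9241 CPM in sum in the chosen cells (0.924% of UMIs), against 455 CPM in the other kept cells. Cxcl12, the chemokine that retains leukocytes and progenitors, stood at 5096 CPM in control 1, 3190, 2271 and 2761 CPM in HFD 1 to 3, and 1305, 636 and 2547 CPM in WD 1 to 3. All NASH mice lay below the control, and it was not called. Serping1 stood at 637 CPM in control 1 and 2353, 3079, 2144 and 1573 CPM in HFD 1 to 3 and WD 3, a mean 3.59-fold higher, and was called. C1s1, a protease of the first complement component, was called higher through the NASH cells. C3 had 1537 CPM over all chosen cells, but also 1819 CPM in cholangiocytes. Csf1, the growth factor of macrophages, had 311 CPM in 74 cells. Ccl2, which attracts monocytes, was in 16 cells.

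Of the 22 transcription factors listed, 5 were measured and none of these was called in either direction. Nr2f2, also expressed by endothelium, stood at 637 CPM in control 1 and 819, 602, 910 and 692 CPM in HFD 1 to 3 and WD 3. Hand2 stood at 934 CPM in control 1 and 731, 551, 411 and 503 CPM, and Lhx2, which is known to restrain activation, at 552 and then 234, 189, 499 and 283 CPM. The last 2 were lower in all 4 NASH mice without being called. Tcf21 had UMIs in 63 cells and Prrx1 in 46, with none in control 1 for the latter.

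Lists of other cell types moved with the comparison to control 1. Hepatocyte genes summed to 17199 CPM in control 1 (405 UMIs) and to 925, 1307, 411 and 157 CPM in HFD 1 to 3 and WD 3. The most abundant, Alb, was 6158 CPM in control 1, where 115 of 145 UMIs were in 1 cell, and 77.8% of control cells had an Alb UMI against 78.5% of T cells of that library. Of 12 hepatocyte genes 10 were measured, through the control alone, and all 10 were called lower, against 37.2% of all genes measured that way. Without the deepest cell of each mouse 5 were measured and 4 called lower. Without the cells with Ptprc 4 were measured and all 4 called lower. At least 10 hepatocyte UMIs were present in 6 of 9 control and 14 of 95 NASH cells, and without them 3 control cells with 6803 UMIs remained. Of these UMIs, 3582 were in 1 cell, which had 36 UMIs of general leukocyte genes and none of the collagens outside the rule. Its quiescent genes without Lrat were at 8.38 UMIs per 10000. Against this pool Col1a1, Col1a2, Col3a1, Col4a1 and Col6a3 were called higher and Ecm1 lower, and for the collagens this is a weak check. Of 4 general leukocyte genes 3 were measured, also through the control alone, and all 3 were called lower, and 2 of the 9 control cells had Ptprc. Without the cells with Ptprc none of the 3 was measured. Laptm5 was also not called without the cells with hepatocyte UMIs, without the deepest cell of each mouse or at 3-fold. Macrophage genes summed to 892 CPM in control 1 and 1597, 1273, 1733 and 818 CPM in HFD 1 to 3 and WD 3. Lyz2 had a UMI in 96.9% of the chosen cells of HFD 1 at 608 CPM, and in 90.5% of T cells at 1025 CPM. Its source was not tested. T and NK genes summed to 2506 CPM in control 1, where 39 of 42 Ccl5 UMIs were in 1 cell, and to 1950 CPM in WD 3, where all 38 Ccl5 UMIs were in 1 cell. The neutrophil list was 1784 CPM and the B and plasma cell list 595 CPM in control 1, and 113 and 102 CPM in HFD 1. The endothelial list was 1571 CPM in control 1 and 182 CPM in HFD 1, and the cholangiocyte list 0 and 20.9 CPM, and erythroid genes 84.9 and 0 CPM. The part of these RNAs in other differences from the control was not tested beyond leaving out the cells named.

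Genes of vessel wall and portal cells and of stress completed the lists. The smooth muscle and pericyte list stood at 3864 CPM in control 1, 3013, 4593 and 6931 CPM in HFD 1 to 3 and 1730 CPM in WD 3, with Rgs5 the most abundant. Abcc9, a channel subunit of pericytes, was called lower, at 1996 CPM in control 1 and 858, 980.5, 705 and 503 CPM in HFD 1 to 3 and WD 3. The portal fibroblast list was 170 CPM in control 1 and 2714, 1497, 1968 and 1352 CPM in the same mice, with none of its 12 genes measured in the control, and the 2 measured through the NASH cells were not called. The control value is 4 UMIs. In HFD 3, 1 cell held 41 of 42 Eln and all 15 Dpt UMIs, of 67 UMIs of the list. The list was at 0 in the single cell of WD 1 and at 4925 CPM in that of WD 2. Dpt, a matrix protein of fibroblasts, led the list at 1190 CPM over all chosen cells, in 62 cells. Immediate early genes were at 1103 CPM and heat shock genes at 1870 CPM over all chosen cells, lower than the 1967 and 2761 CPM of the other kept cells. None of the 12 immediate early genes was measured in the comparison with control 1, and none of the 3 measured of the 8 heat shock genes was called.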

How the data were processed

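Livers of 8 mice were dissociated with collagenase IV, papain and DNase, dead cells were removed, and 10x Genomics 3' libraries were sequenced. The authors deposited 1 matrix of raw UMI counts per gene and barcode for all mice, made with Cell Ranger against GRCm38 after bcl2fastq 2.20. The matrix header names Cell Ranger 4.0.0, while the methods of the study name a later version. Mice were told apart by barcode suffix. Of 88581 barcodes, 80474 with over 500 genes and under 25% mitochondrial UMIs were kept. The rule was then applied to raw counts, and counts were summed per mouse. The members, gene lists and contrasts were chosen with earlier results of these data known. Genes named are list members (the highest or those the comparisons turn on), the 20 highest and 5 lowest ratios to other kept cells (10 CPM added), and leading genes of clusters. Called genes outside the lists are named only where a count of 8 or 5 is given in full, after their values were seen. The planned tests across genes with edgeR could not be made, because at no limit of 5, 10 or 20 cells did both groups of a comparison keep 2 mice. Shares were compared by exact permutation of mice over 28 or 20 splits. The fold comparison and its limits were chosen after seeing the data, as were the clustering settings (2000 variable genes, 10 components, 15 neighbours, Leiden resolution 1). Gene positions are from GENCODE M21, whose IDs matched all 55450 genes. Levels are from 3' tags and not scaled by length, so orders between genes are orders of UMIs. A doublet score (Scrublet) was used by rank only. 1 gene of the quiescent list is not reported here by itself. Scripts were tested on simulated data. Python 3.11.15, Scanpy 1.11.5, SciPy 1.17.1 and NumPy 2.4.6 were used.

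Of the removed barcodes, 14 of 8107 met the gene rule. No barcode sequence was shared between chosen cells, and 4 of the 104 (3.85%) had a sequence that occurs in another library, against 2.04% of all barcodes.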

Additional observations from a re-analysis of the deposited data

Results flagged for a closer look

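The share of chosen cells in HFD 1, 0.581%, stood apart from the other NASH mice. Its gap to the nearest of them was 0.722 of the range of all 6, above the limit of 0.625 for 6 values. Of the 14 groups of values tested in this way it was the only one past its limit, and chance flags about 1 in 20. HFD 1 holds 62.5% of the chosen cells, so every value pooled over mice is mostly a value of that mouse. No cause was tested.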

How the results depend on the processing

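The share of NASH against control mice was tried under 19 changes, and that of WD+F+CCl4 against HFD+F+CCl4 mice under 18. None turned the direction or passed the threshold. The second comparison could not reach it with 3 against 3 mice. Of its 10 other filters, rules and denominators, 6 gave the smallest exact permutation p possible, 0.1. The first could not reach the threshold with either control left out, which leaves 7 splits. Dropping the stellate marker, allowing 1 Csf1r UMI and taking medians were not planned in either comparison. The first ranged from 0.0893 to 0.551 percentage points over other filters, rules and denominators, was 0.00736 as a difference of medians (chosen after seeing the data), and ranged from 0.0152 to 0.144 with 1 mouse left out. The second ranged from -1.34 to -0.203, was -0.158 as a difference of medians, and ranged from -0.351 to -0.0842 with 1 mouse left out. Pairing mice of the 2 diets by number as a replicate block gave -0.242 (exact sign-flip permutation test, p = 0.5). The numbers name no shared litter or day.

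Against control 1, 46 genes were called higher and 53 lower. Leaving out cells with 10 or more hepatocyte UMIs left 3 control cells and 118 genes measured, with 15 called higher and 26 lower, of which 10 and 7 were among the 46 and 53. Leaving out cells with Ptprc gave 34 and 43 of 272 genes, of which 18 and 22 were shared, and leaving out the deepest cell of each mouse 35 and 32 of 349, of which 26 and 22 were shared. A 3-fold limit gave 18 and 34. With 1 NASH mouse left out the calls were 51 to 59 higher and 57 to 68 lower. A call asks for every NASH mouse, so this step could lose a call only where a gene was no longer measured. It is no check of the calls. These changes were added after seeing the data. Other normalizations, count models and filters on low counts were not run, since no test across genes could be made. Depth limits all statements on the control: 9 cells of 1 mouse, where 10 UMIs are 425 CPM.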
